A study of Saccharomyces cerevisiae with 11 samples.

Results

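The genes described here are 42 meiosis and sporulation genes of budding yeast, a set of regulators, recombination, chromosome axis and spore-building genes that growing haploid cells keep off or at a low level. They were taken from a fixed list of gene names, and each was read from the array probe set annotated to it. All 42 were found among the 5449 S. cerevisiae genes matched on the array. The study hybridised RNA of 5 strains to 11 Affymetrix Yeast Genome 2.0 arrays, each strain grown in the rich glucose medium YPD from an optical density of 0.2 to 0.8. R11 carries an arginine inserted at position 11 of the histone H2A N-terminal tail (2 arrays), and K11 a lysine at the same place (2 arrays). ΔS15 lacks serine 15 of that tail (2 arrays), R11ΔS15 carries the inserted arginine together with the deletion (2 arrays), and WT carries unchanged H2A (3 arrays). The genotype entry of the R11ΔS15 labels names a lysine, while the titles and the strain list of the study name an arginine, which is used here. All strains, WT included, are haploid, of mating type a, carry ura3-52 and his3 alleles, lack both chromosomal H2A genes and live on a single plasmid copy of H2A, so that WT is itself an engineered strain with 1 source of H2A. The study examined the inserted arginine for its effect on chromatin compaction, and the comparison asked of these genes is whether their low level differs between the H2A mutants and WT.

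Yeast enters meiosis only as an a/alpha diploid that is starved of nitrogen and lacks glucose. In all other cells the master activator gene IME1 is held down, in haploids by the repressor Rme1 and in glucose by nutrient signalling. The early meiotic genes are repressed by Ume6, which brings the Sin3-Rpd3 histone deacetylase and the Isw2 remodeling complex to their promoters. Middle sporulation genes wait for the activator Ndt80, and part of them are repressed in growing cells by Sum1 with the histone deacetylase Hst1 and Rfm1. Both routes act through chromatin.

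The deposited signals are scaled so that each array has the same trimmed mean, between 500.2 and 500.3. The arrays separated by their spike-in controls, which are added to each hybridization, into arrays at 11.69 to 11.87 on the log2 scale (both R11 arrays, both K11 arrays, WT replicates 1 and 2) and arrays at 11.54 to 11.56 (both ΔS15 arrays, both R11ΔS15 arrays, WT replicate 3). The ratio of 3′ to 5′ signal of ACT1 was 1.26 to 1.35 on the brighter arrays and 1.04 to 1.11 on the dimmer ones. The labels do not mention this split, which puts all arrays of ΔS15 and R11ΔS15 on the side of a single WT array. Genes of chromosome IX were raised on ΔS15 replicate 1 and R11ΔS15 replicate 2. The 7 genes specific to a cells, such as STE2 for the alpha-factor receptor (3968 to 4606), the pheromone gene MFA1 (1335 to 1849) and ASG7 (113 to 202), and the 8 haploid-specific genes were above background on every array. So were the 4 genes specific to alpha cells, among them MF(ALPHA)1, which encodes the alpha-factor pheromone, at 29.1 to 64.2, STE3, the receptor for a-factor, at 130.0 to 224, and SAG1, the alpha-agglutinin gene, at 645 to 823. With 2 arrays of a mutant and 3 of WT, precision is set by the number of arrays. Groups this small fail to overlap for a fair part of genes even where no level differs. The share of all genes without overlap is not given here, so a lack of overlap is description only.

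Almost all of the 42 genes read above the array background in growing haploid cells, as almost all matched genes did. Background was taken from 1747 probe sets on the same arrays for genes of the fission yeast S. pombe, which is not in the cultures. The 95th percentile of their mean signals was 5.10, and 41 of the 42 genes lay above it, beside 5415 of all 5449 matched genes. The genes specific to alpha cells also did, at 10.2 to 144 times that background, although the cells are of mating type a. The 41 genes had geometric mean signals of 13.8 to 481, which is 2.71 to 94.4 times that background, with a median of 14.2 times, and all 41 also lay above the 99th percentile of 9.35. Signals under 100 were found for 25 of the 42. Signals of different probe sets are not calibrated against each other, so each gene was compared with itself across strains. Against the background of each single array, which was 5.74 to 9.71, between 40 and 42 genes were above it, and 40 of them were above it on all 11 arrays. Whether these signals are transcript of the genes, or what the probe sets read without it, was not tested. Since whole cultures were measured, a few cells with more of a transcript and many cells with a little of it cannot be told apart either.

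**Figure D1:**
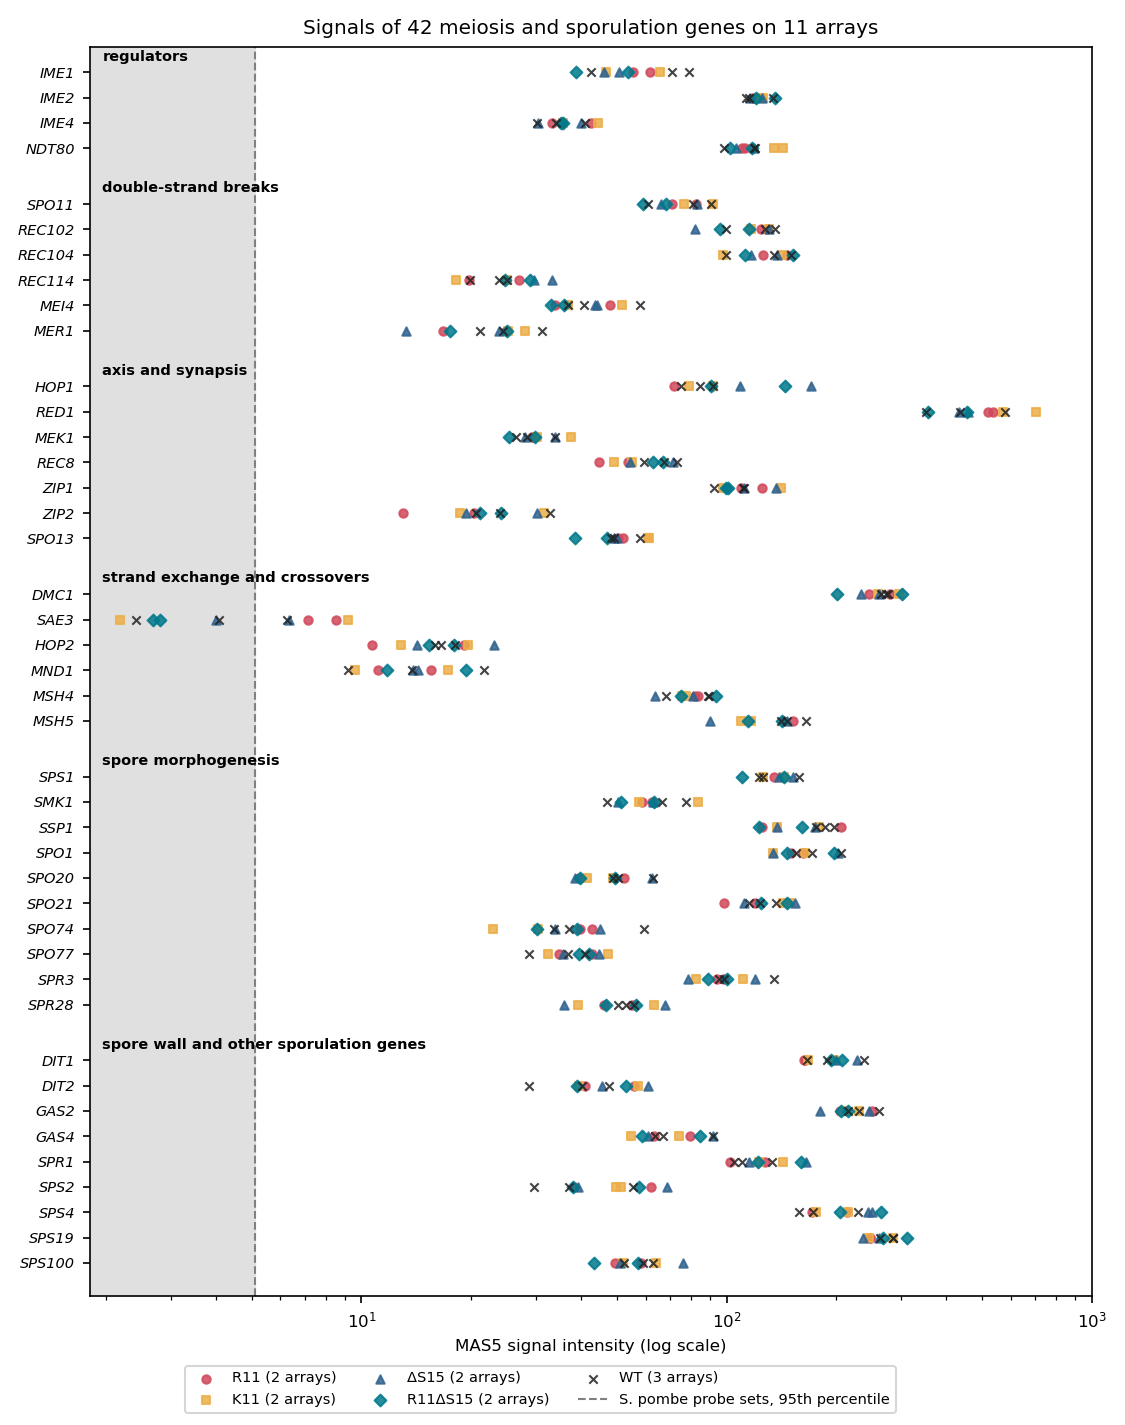
Signal intensity (horizontal, log scale) of each of the 42 genes (rows, grouped by role) on the 11 arrays, with 1 symbol per array and the strains in colour. The grey field ends at 5.10, the 95th percentile of the S. pombe probe sets. SAE3 is the only gene whose mean lies inside it, and the symbols of the 5 strains intermingle for most genes.

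No member of the set differed from WT in any H2A mutant by the test over all genes. With limma and Benjamini-Hochberg adjustment over 5415 genes, 0 of 41 tested members passed an adjusted p of 0.05 in R11, K11, ΔS15 or R11ΔS15 against WT, in R11ΔS15 against ΔS15, or in R11 against K11. Over all genes the share was also 0% in each of these 6 comparisons. At an unadjusted p under 0.05, the count was 0 of 41 in R11 against WT, beside 0.351% of all genes. It was 2 in K11 (RED1 and SPO74), beside 0.425%, and 1 in ΔS15 (HOP1), beside 5.28%. In R11ΔS15 it was 0, beside 10% of all genes. It was 0 for R11ΔS15 against ΔS15 (0.425% of all genes) and 0 for R11 against K11 (0.222%). A difference of 2-fold or more was found for 0 of 41 members in every comparison, where the share of all genes was 0.0923% for R11, 0.0739% for K11, 0.222% for ΔS15 and 0.24% for R11ΔS15 against WT, 0.0185% in R11ΔS15 against ΔS15, and 0.0739% in R11 against K11. Among 246 estimates, the one farthest from no change was a log2 fold change of 0.71, for HOP1 in ΔS15.

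Against WT, the median log2 fold change of the 41 members was -0.04 for R11 (13 members higher, 28 lower) and -0.01 for K11 (19 higher). It was 0.00 for ΔS15 (21 higher) and -0.05 for R11ΔS15 (15 higher). It was -0.09 in R11ΔS15 against ΔS15 and -0.06 in R11 against K11, each with 17 members higher and 24 lower. The medians of all tested genes lay between -0.02 and 0.00. With quantile normalization the member medians against WT became 0.07 (R11), 0.06 (K11), -0.10 (ΔS15) and -0.10 (R11ΔS15), and 0.01 in R11 against K11, so that the sign turned for R11, for K11 and for R11 against K11. The SD of the members' median level between arrays of the same strain, pooled over the strains, was 0.11 on the same scale. This SD describes single arrays and is not the error of a difference between strains. The median in ΔS15 against WT moved to 0.13 without the 2 arrays with raised chromosome IX and to -0.17 without ΔS15 replicate 2. After a term for the spike-in split it was -0.14. Only WT has arrays in both spike-in sets, so this value sets ΔS15 against WT replicate 3 alone. In R11ΔS15 against ΔS15 it was -0.21 without ΔS15 replicate 1. The S. pombe probe sets, which read no transcript of these cells, had medians against WT of -0.09 for R11, 0.05 for K11, -0.40 for ΔS15 and -0.24 for R11ΔS15.

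How large a change the data still allow is given by the 95% confidence intervals of limma. They lay wholly within 2-fold of no change for 36 of 41 members when R11 was set against WT, 38 for K11, 36 for ΔS15 and 36 for R11ΔS15, for 37 in R11ΔS15 against ΔS15 and for 36 in R11 against K11. Per single comparison this was 87.8% to 92.7% of members, beside 92.7% to 96.9% of all tested genes. For 30 members it held in all 6 comparisons. The members had a median residual SD of 0.26 on the log2 scale, against 0.17 for all genes. The 5 members whose interval passed 2-fold in R11 were SPS2, ZIP2, MER1, HOP2 and MND1, and in R11ΔS15 they were HOP1, IME1, SPS2, MER1 and MND1. In K11 they were SPS2, SPO74 and MND1, and in ΔS15 they were HOP1, SPS2, DIT2, REC114 and MER1. No adjustment for multiple genes enters these intervals.

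**Figure D2:**
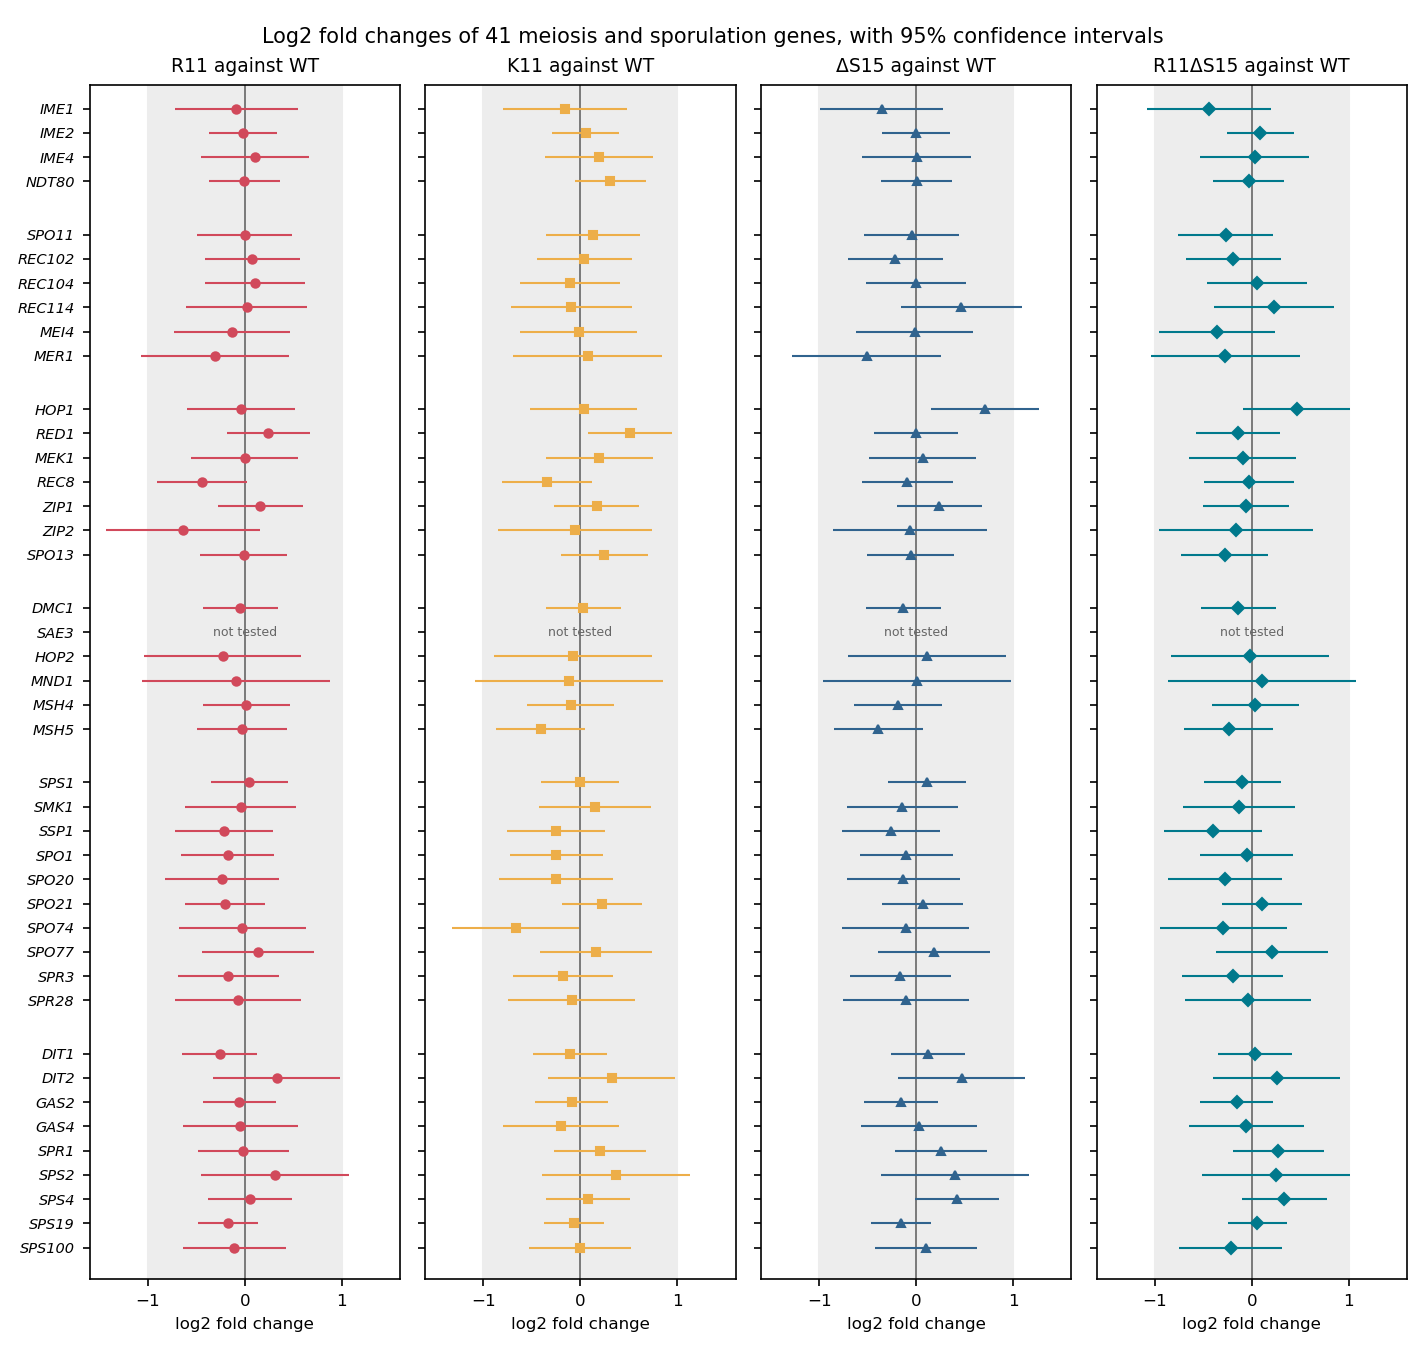
Log2 fold change against WT (horizontal, points) of the 41 tested genes (rows) in R11, K11, ΔS15 and R11ΔS15, with 95% confidence intervals from limma as bars. The grey field marks changes under 2-fold. All points lie inside it, the outermost being HOP1 in ΔS15 at 0.71, and most bars do as well.

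Among the regulators, IME1 encodes the activator that starts meiosis. It had signals of 61.6 and 55.3 in R11, 65.7 and 46.8 in K11, 46.2 and 50.8 in ΔS15, 53.8 and 38.8 in R11ΔS15, and 78.7, 71.0 and 42.6 in WT. WT held both the 2 highest values and the second lowest, so that every mutant overlapped with it. Log2 fold changes were -0.09 for R11, -0.16 for K11, -0.36 for ΔS15 and -0.44 for R11ΔS15 (standard error 0.29 each), and the interval in R11ΔS15 ran from -1.08 to 0.20. The low WT value was that of replicate 3, the WT array in the spike-in set of ΔS15 and R11ΔS15. Only WT has arrays in both spike-in sets, so a term for that split sets ΔS15 and R11ΔS15 against WT replicate 3 alone. When the fit held this term, IME1 had 0.19 in ΔS15 and 0.10 in R11ΔS15.

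IME2, a kinase gene that Ime1 turns on and that drives the early steps, had the narrowest intervals of the 4 regulators. Its signals were 118 and 120.0 in R11, 124 and 126 in K11, 116 and 125 in ΔS15, 120.4 and 136 in R11ΔS15, and 115, 113 and 134 in WT. Its log2 fold changes against WT lay between -0.02 (R11) and 0.09 (R11ΔS15), with a standard error of 0.16, and the intervals of the 4 mutants spanned -0.37 to 0.44. NDT80, the activator of the middle genes, had 111 and 113 in R11, 142 and 135 in K11, 119 and 106 in ΔS15, 117 and 102 in R11ΔS15, and 119.8, 98.6 and 119 in WT. Both K11 arrays were above all others, with a log2 fold change of 0.31 against WT (interval -0.06 to 0.68) and -0.31 for R11 against K11 (limma adjusted p = 0.9999 and 0.99999). In R11, ΔS15 and R11ΔS15 the value for NDT80 lay between -0.03 and 0.01.

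IME4 encodes an RNA methyltransferase needed for entry into meiosis, and in haploids an antisense RNA, RME2, is transcribed across it. Its signals were 33.2 and 42.4 in R11, 44.5 and 35.6 in K11, 30.5 and 40.1 in ΔS15, 35.7 and 35.3 in R11ΔS15, and 40.9, 34.2 and 30.2 in WT. The strains overlapped throughout, with log2 fold changes against WT between 0.00 in ΔS15 and 0.19 in K11 (standard error 0.26). IME4, ZIP2 (with RME3) and SPS100 (with SUT169) are the 3 members that overlap an annotated antisense RNA, and whether their probe sets also read those RNAs was not tested.

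The genes that make the meiotic double-strand breaks were SPO11, which encodes the enzyme that cuts the DNA, its partner genes REC102, REC104, REC114 and MEI4, and MER1, a splicing regulator that REC107 and other meiotic transcripts need. Their median log2 fold change was 0.01 for R11, 0.01 for K11, -0.03 for ΔS15 and -0.23 for R11ΔS15, and 4 of 6 were lower in R11ΔS15. SPO11 had 0.00 (R11), 0.13 (K11), -0.05 (ΔS15) and -0.27 (R11ΔS15), all with a standard error of 0.22. MER1 had 16.7 and 24.96 in R11, 28.0 and 25.2 in K11, 13.2 and 23.8 in ΔS15, 17.5 and 25.04 in R11ΔS15, and 21.1, 24.4 and 31.3 in WT. Its replicates spread as widely as its strains, and the interval in ΔS15 ran from -1.27 to 0.26. REC114 had a log2 fold change of 0.46 in ΔS15 (interval -0.16 to 1.09) and 0.02 in R11. None of the 6 genes was among the 3 members with the smallest p in any comparison.

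The genes of the chromosome axis, synapsis and the first division held the member farthest from WT. HOP1 encodes an axis protein on which meiotic chromosomes are built, and it is the only member on chromosome IX. It had signals of 91.3 and 71.9 in R11, 92.1 and 79.0 in K11, 170.0 and 109 in ΔS15, 90.9 and 145 in R11ΔS15, and 84.6, 74.9 and 91.5 in WT. Both ΔS15 arrays were above all WT arrays, while R11ΔS15 overlapped with WT. The log2 fold change was 0.71 in ΔS15 (standard error 0.25, limma adjusted p = 0.782) and 0.46 in R11ΔS15 (adjusted p = 0.569). It was -0.04 in R11 and 0.03 in K11.

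The 2 high HOP1 values stood on the 2 arrays with raised chromosome IX. On ΔS15 replicate 1, HOP1 was 2.04 times its WT mean, and the chromosome, as the median of 188 genes, was 1.70 times. On R11ΔS15 replicate 2 the values were 1.74 and 1.74 times. On the other replicate, HOP1 was 1.31 times its WT mean in ΔS15 and 1.09 times in R11ΔS15, where the chromosome stood at 1.01 and 0.992 times. SPO22, a synapsis gene on the same chromosome that is not in the set, had 1.38 on ΔS15 replicate 1 and 1.47 on R11ΔS15 replicate 2, and between 0.883 and 1.08 on the others. Without the 2 arrays HOP1 had a log2 fold change of 0.39 in ΔS15 and 0.12 in R11ΔS15, and with the genes of chromosome IX centred on each array it had 0.32 and 0.09. On ΔS15 replicate 1 alone, the array with raised chromosome IX, it reached 1.03, past 2-fold. The limma adjusted p of 0.245 then assumes that this single array varies like the other strains.

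**Figure D3:**
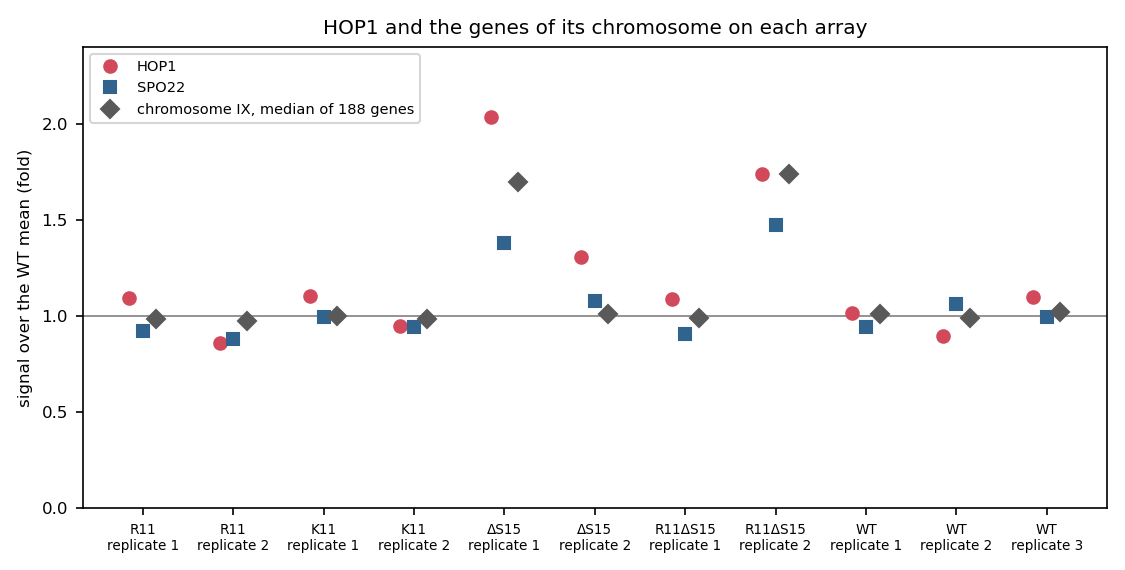
Signal over the WT mean (vertical, fold) on each of the 11 arrays for HOP1, for SPO22 and for chromosome IX as a median over 188 genes. HOP1 stands at 2.04 on ΔS15 replicate 1 and 1.74 on R11ΔS15 replicate 2, the 2 arrays where the chromosome stands at 1.70 and 1.74. On every other array HOP1 lies between 0.862 and 1.31.

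RED1, an axis gene like HOP1, had 537 and 519 in R11, 703 and 571 in K11, 459 and 434 in ΔS15, 456 and 357 in R11ΔS15, and 436, 578 and 352 in WT. K11 replicate 1 was the highest array and K11 replicate 2 lay within the WT range, and the log2 fold change in K11 was 0.51 (interval 0.08 to 0.94, limma adjusted p = 0.9999). REC8 encodes the meiotic cohesin subunit that holds sister chromatids together. It had 53.6 and 44.7 in R11, 49.3 and 55.1 in K11, 54.4 and 71.5 in ΔS15, 67.0 and 62.8 in R11ΔS15, and 59.4, 67.2 and 73.1 in WT. R11 and K11 lay below all WT arrays, with log2 fold changes of -0.44 and -0.35 (adjusted p = 0.9999 for both with limma), whereas R11ΔS15 overlapped with WT at -0.03.

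ZIP1 and ZIP2 encode a building block of the synaptonemal complex and a factor that starts its assembly. ZIP2 had 20.3 and 13.0 in R11, 31.7 and 18.6 in K11, 19.4 and 30.2 in ΔS15, 21.2 and 24.1 in R11ΔS15, and 20.6, 23.9 and 32.8 in WT. R11 replicate 2 was the lowest array, and R11 replicate 1 lay just under the lowest WT array. The log2 fold change in R11 was -0.64 with an interval of -1.43 to 0.16, and it ranged from -0.96 to -0.31 as single arrays were left out. ZIP1 had 101 and 99.8 in R11ΔS15, against 111 and 137 in ΔS15, at a log2 fold change of -0.30 with a standard error of 0.22. R11 had 109 and 125, K11 had 141 and 97.9, and WT had 92.4, 111 and 112. MEK1, the kinase that steers recombination to the homologue, and SPO13, which protects sister cohesion at the first division, lay between -0.28 and 0.25 in the 4 mutants. Taking the 7 genes together, 2 were higher for R11, 5 for K11, 4 for ΔS15 and 1 for R11ΔS15. In R11 against K11 all 7 estimates were lower, from -0.58 to -0.01 with a median of -0.20. Over all tested genes 2758 were lower and 2657 higher there. The 7 estimates come from the same arrays and are not independent of each other.

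Among the genes of strand exchange and crossing over, SAE3 encodes a partner of the meiotic recombinase Dmc1 and had a mean signal of 4.47, the only one of the 42 under the background of 5.10. It had 8.50 and 7.13 in R11, 9.19 and 2.18 in K11, 3.9998 and 6.33 in ΔS15, 2.80 and 2.69 in R11ΔS15, and 4.07, 2.41 and 6.24 in WT. It was above the background of its own array on 3 of 11 arrays and was not tested. MND1, which encodes a partner of Hop2 in pairing homologues, had 15.5 and 11.1 in R11, 17.3 and 9.61 in K11, 14.3 and 13.8 in ΔS15, 11.8 and 19.3 in R11ΔS15, and 13.8, 9.21 and 21.6 in WT. SAE3 and MND1 had the widest spread among the WT arrays, with SDs of 0.69 and 0.62 on the log2 scale. For MND1 the standard error against WT was 0.44, and the interval passed 2-fold in R11, K11 and R11ΔS15 and ran from -0.96 to 0.97 in ΔS15.

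DMC1 itself lay close to WT in all mutants, with log2 fold changes of -0.05 (R11), 0.03 (K11), -0.13 (ΔS15) and -0.14 (R11ΔS15, standard error 0.18). MSH5 forms with Msh4 the complex that marks crossovers. It had 152 and 143 in R11, 109.6 and 117 in K11, 90.1 and 146 in ΔS15, 142 and 115 in R11ΔS15, and 141, 146 and 165 in WT. Both K11 arrays lay below all WT arrays, with a log2 fold change of -0.41 (interval -0.87 to 0.05, limma adjusted p = 0.9999). In ΔS15 only replicate 1 was low, and the log2 fold change of -0.39 became -0.04 without it and -0.74 without replicate 2. MSH4 lay between -0.19 in ΔS15 and 0.03 in R11ΔS15.

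Of 10 genes for spore morphogenesis, which build and close the prospore membrane around the haploid nuclei, the median log2 fold change was -0.12 for R11 (2 higher), -0.14 for K11 (3 higher), -0.10 for ΔS15 (3 higher) and -0.11 for R11ΔS15 (2 higher). SPO74 encodes a component of the meiotic spindle pole body from which that membrane grows. It had 39.8 and 42.8 in R11, 22.9 and 30.5 in K11, 33.9 and 45.0 in ΔS15, 30.2 and 38.9 in R11ΔS15, and 37.0, 33.6 and 59.6 in WT. Both K11 arrays lay below all WT and R11 arrays, and WT replicate 3 was the highest of the 11. The log2 fold change was -0.67 in K11 (interval -1.32 to -0.01, limma adjusted p = 0.9999) and 0.64 for R11 against K11. In K11 it was -0.28 with 50 added to each signal and -0.42 without WT replicate 3.

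SPO21, another gene of that outer plaque, had 98.3 and 119.9 in R11, 149 and 143 in K11, 112 and 154 in ΔS15, 124 and 146 in R11ΔS15, and 115, 137 and 124 in WT. R11 lay below K11 without overlap, at a log2 fold change of -0.43 (interval -0.88 to 0.02), the smallest p of any member in that comparison, with an adjusted p of 0.99999 by limma. SSP1, which encodes a protein of the leading edge of the prospore membrane, had 123 and 161 in R11ΔS15, against 197, 175 and 186 in WT. All WT arrays were higher, and the log2 fold change was -0.40 (interval -0.91 to 0.10, adjusted p = 0.580 by limma). It was -0.20 without R11ΔS15 replicate 1 and -0.60 without R11ΔS15 replicate 2. SSP1 in the other strains covered nearly the same range, with 206 and 125 in R11, 179 and 137 in K11 and 138 and 175 in ΔS15. The sporulation kinase genes SPS1 and SMK1, the septin genes SPR3 and SPR28 and the genes SPO1, SPO20 and SPO77 lay between -0.27 and 0.21 against WT in the 4 mutants.

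Of the 9 genes for the spore wall and other sporulation products, the median log2 fold change was -0.05 for R11 (3 higher), -0.01 for K11 (4 higher), 0.12 for ΔS15 (7 higher) and 0.06 for R11ΔS15 (6 higher). SPS4, a sporulation-specific gene of the middle class, had 171 and 214 in R11, 176 and 215 in K11, 244 and 249.96 in ΔS15, 264 and 204 in R11ΔS15, and 173, 158 and 229.6 in WT. Both ΔS15 arrays were above all WT arrays, at a log2 fold change of 0.42 (interval -0.02 to 0.86, limma adjusted p = 0.782). The highest WT array was again replicate 3. After a term for the spike-in split, which sets these strains against that array alone, SPS4 had 0.10 in ΔS15 and 0.02 in R11ΔS15. DIT1 makes the dityrosine precursor of the outer spore wall. It had 162 and 164 in R11, 167 and 197 in K11, 199.6 and 227 in ΔS15, 193 and 207 in R11ΔS15, and 166, 189 and 238 in WT. R11 lay just below WT without overlap, at -0.26 (standard error 0.18).

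Between R11ΔS15 and ΔS15, which differ by the inserted arginine, the 3 members with the smallest p were SPS19, ZIP1 and SPS100. SPS19 encodes a peroxisomal enzyme of fatty acid breakdown, and had 312 and 268 in R11ΔS15 and 262 and 237 in ΔS15, with a log2 fold change of 0.21 (interval -0.12 to 0.55). In the other strains it had 246 and 246 in R11, 246 and 286 in K11, and 264, 285 and 286 in WT. SPS100, whose product protects the spore wall as it matures, had 57.2 and 43.4 in R11ΔS15 and 51.2 and 75.9 in ΔS15, with overlap and a log2 fold change of -0.32 (standard error 0.26). It had 58.4 and 49.6 in R11, 52.0 and 64.0 in K11, and 62.9, 59.0 and 52.5 in WT. The remaining genes GAS2 and GAS4, for enzymes that remodel wall glucan, SPR1, a sporulation glucanase gene, SPS2 and DIT2, which encodes the second dityrosine enzyme, lay between -0.20 and 0.47 against WT. A test of whether the arginine acted differently with and without serine 15 called 0 of 41 members and 0% of all genes in limma. At an unadjusted p under 0.05 it held 0 members, beside 0.129% of all genes.

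The level of the set also varied between cultures of 1 strain. Each member's log2 signal was set against its own mean over the 11 arrays. The median over the 41 members was -0.03 and -0.01 on the R11 arrays, 0.10 and 0.01 on the K11 arrays, -0.13 and 0.17 on the ΔS15 arrays, 0.02 and -0.11 on the R11ΔS15 arrays, and -0.02, -0.02 and 0.13 on the WT arrays. ΔS15 replicate 2 and WT replicate 3 were high, with 34 and 31 of 41 members above their own mean. ΔS15 replicate 1 and R11ΔS15 replicate 2 were low, with 11 and 14 members above it, and these are the arrays with raised chromosome IX.

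Within ΔS15, 33 of 41 members were higher on replicate 2 than on replicate 1, by a median of 0.32 on the log2 scale, beside 63.0% of all genes and a median of 0.09. Within R11ΔS15, 29 members were higher on replicate 1 than on replicate 2 (median 0.22), beside 52.6% of all genes and a median of 0.02. Within WT, replicate 3 was higher than replicate 1 for 28 members (median 0.22) and higher than replicate 2 for 32 (median 0.27), where 58.9% and 62.5% of all genes were higher, with a median of 0.08 in both. The 2 arrays of R11 and the 2 of K11 were closer, with medians of 0.00 and 0.08. The other meiosis and sporulation genes that are not in the set had their highest array medians on WT replicate 3 (0.19), ΔS15 replicate 2 (0.18) and R11ΔS15 replicate 1 (0.17). The 19 tested genes that glucose represses had array medians of -0.29 and -0.02 in R11, -0.11 and 0.10 in K11, -0.05 and 0.11 in ΔS15, 0.23 and -0.07 in R11ΔS15, and -0.31, 0.01 and 0.20 in WT. The part of nutrient state, of the spike-in split and of chromosome IX in the differences between cultures was not tested.

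**Figure D4:**
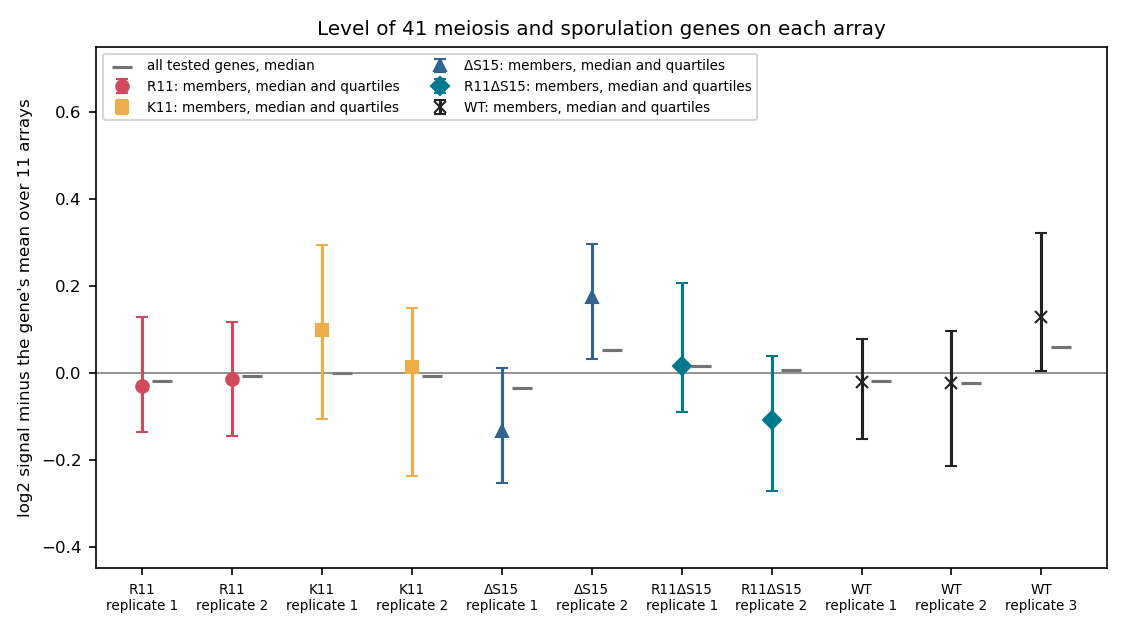
Log2 signal minus the gene's mean over 11 arrays (vertical), given as the median and quartiles of the 41 tested genes on each array, with the median of all tested genes as a grey dash. The ΔS15 arrays stand at -0.13 and 0.17 and the WT arrays between -0.02 and 0.13, and the 2 ΔS15 arrays lie farther apart than the 2 arrays of R11 or of K11.

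Beside the set, 39 further genes listed for meiosis and sporulation were on the array. Among them 0 passed limma's test against WT, and an unadjusted p under 0.05 was found for 1 in R11 (PES4, beside 0.351% of all genes), 0 in K11 (0.425%), 1 in ΔS15 (LDS2, 5.28%) and 1 in R11ΔS15 (MSC6, 10%). Their median log2 fold change was -0.06 for R11, -0.01 for K11, 0.04 for ΔS15 and 0.02 for R11ΔS15. PES4, a translational regulator of sporulation, had 61.6 and 66.5 in R11, 70.3 and 65.7 in K11, and 76.9, 81.4 and 102 in WT, with log2 fold changes of -0.43 in R11 and -0.34 in K11. SPS22, a spore wall gene, had -0.50 in R11 and -0.45 in K11, with overlap in both. LDS2, a gene for a lipid droplet protein of the spore wall, had 151 and 153 in ΔS15 and 157 and 129 in R11ΔS15, against 96.4, 89.4 and 144 in WT (log2 fold change 0.50 in ΔS15). MSC6 had 0.50 in ΔS15 and 0.51 in R11ΔS15, and LOH1 had -0.57 in R11ΔS15. Not every gene of this list read low, since MSC6 and CSM1 had mean signals of 733 and 614, beside a median of 602 over all tested genes.

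Of 21 repressors and upstream regulators of the programme that growing cells express, 0 passed limma's test against WT. At an unadjusted p under 0.05 there were 1 in R11 (UME6, beside 0.351% of all genes), 0 in K11 (0.425%), 1 in ΔS15 (SUM1, 5.28%) and 3 in R11ΔS15 (TPK2, ITC1 and RIM11, 10%). The median was 0.02 for R11, 0.00 for K11, -0.01 for ΔS15 and 0.04 for R11ΔS15. UME6, the DNA-binding repressor of the early genes, had 712 and 878 in R11, against 693, 569 and 626 in WT, without overlap (log2 fold change 0.33, standard error 0.14), and RIM15, a nutrient-controlled kinase gene, had 0.19 there. YHP1, a repressor of IME1, and ITC1, a subunit of the Isw2 complex, had 0.19 and 0.18 in K11. SUM1, the repressor of middle genes, had 889 and 906 in ΔS15, against 1247, 1224 and 925 in WT (-0.32), and the low WT value was that of replicate 3. ITC1 had -0.28 in ΔS15 and -0.34 in R11ΔS15, and TPK2, which encodes a catalytic subunit of protein kinase A, had 0.51 in R11ΔS15. RME1, the haploid repressor of IME1, had 610.0 to 868 over the 11 arrays.

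The 19 genes repressed by glucose were read as markers of the nutrient state of the cultures, and 0 passed limma's test against WT. Their medians were -0.04 for R11, 0.05 for K11, 0.05 for ΔS15 and 0.15 for R11ΔS15. In R11 the smallest p belonged to FBP1 (0.28) and CAT2 (-0.22), and in K11 to HXT5 (0.44) and FBP1 (0.23). At an unadjusted p under 0.05 there were 4 in ΔS15, beside 5.28% of all genes, and 4 in R11ΔS15, beside 10%, and 0 in R11 and K11. SUC2 and POT1 of this list lie on chromosome IX, which was raised on 1 array of each of ΔS15 and R11ΔS15. Mean signals in ΔS15, R11ΔS15 and WT were 952, 974 and 594 for SUC2 and 162, 166 and 113 for POT1. How much of this is nutrient state was not tested. HXK1, a hexokinase gene, had 1698 and 1288 in ΔS15 and 2149 and 2023 in R11ΔS15, against 793, 387 and 1243 in WT, and its log2 fold changes of 1.03 and 1.52 made it the only gene of these lists past 2-fold. The WT value nearest to the mutants was that of replicate 3. Without WT replicate 2, HXK1 had 0.58 in ΔS15 and 1.07 in R11ΔS15. After a term for the spike-in split, which leaves WT replicate 3 as the only WT array compared, it had 0.25 in ΔS15 and 0.75 in R11ΔS15. The citrate synthase genes CIT1 and CIT2 had 0.60 and 0.45 in ΔS15 and 0.83 and 0.80 in R11ΔS15. The list did not move as one, since 13 of its genes were higher and 6 lower than WT in each of these strains. Mean signals in ΔS15, R11ΔS15 and WT were 249, 241 and 297 for PCK1 and 184, 172 and 195 for JEN1. In these 2 strains the 41 meiosis and sporulation genes had medians of 0.00 and -0.05.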

How the data were processed

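As deposited, the values are signal intensities that the authors had made with MAS5 at a core facility from poly(A) RNA, already background-corrected, summarised per probe set and scaled per array on a linear scale. The version is not given in the sources used here. Scaling sets every level relative to the rest of its array, so a change in total RNA would not show. No scaling was added. The model (limma 3.58.1 under R 4.3.3) took the log2 signals of all 11 arrays, with each strain as a coefficient and a trend of the variance on the mean (6 residual degrees of freedom). P-values are two-sided with Benjamini-Hochberg adjustment over 5415 genes above the S. pombe background, each represented by its brightest probe set (threshold 0.05). The fit was also run on simulated data with independent noise and planted changes larger than that of any member. That run checks the code and does not show how small a change these arrays can reveal. The replicates are described by the submitters as biological.

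The members and lists were chosen with earlier results of these data known, so no p is given for a list. Genes were given in full by rule: the 4 regulators, the 3 members with the smallest p in each comparison, any member past 2-fold, on chromosome IX or under background, and the 2 with the widest spread in WT. Of the other lists, the 2 genes with the smallest p in each comparison with WT and those past 2-fold were named. MER1, REC114, SPO11 and DMC1 were added after their values were seen. HED1 was not matched, and YAT1 was below background. Promoter motifs were not analysed here. The alternatives were an offset of 50, quantile normalization, centred arrays, other filters, leaving out single arrays or the 2 with raised chromosome IX, the spike-in split as a term, a replicate block, array weights, no trend and only the strains compared. Centring chromosome IX was added after the data had been seen. The plots come from Python 3.11.15 and matplotlib 3.10.9.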

Additional observations from a re-analysis of the deposited data

How the results depend on the processing

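Of the 41 tested members, 0 passed limma's test in any of the 6 comparisons under any alternative, and 0 results changed direction past a threshold. Over all results and alternatives, 2047 values kept their side of the threshold or moved by less than the spread between replicates, and 43 moved by more. The member median in ΔS15 against WT, 0.00, became 0.13 without the 2 arrays with raised chromosome IX. After adding the spike-in split to the fit, which leaves WT replicate 3 as the only WT array compared, it was -0.14. It ranged from -0.17 to 0.13 as single arrays were left out (lowest without ΔS15 replicate 2, highest without ΔS15 replicate 1). That of R11ΔS15 against ΔS15, -0.09, ranged from -0.21 without ΔS15 replicate 1 to 0.078 without ΔS15 replicate 2. Intervals within 2-fold in R11ΔS15 against ΔS15 were 20 without the 2 chromosome IX arrays and 23 to 38 with 1 array left out. In K11 against WT they were 25 to 38.

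The labels name no batch or day that same-numbered arrays share. The correlations of their deviations from the strain means were 0.49 to 0.66 in the pairs among R11, K11 and WT and -0.05 to 0.21 in pairs with ΔS15 or R11ΔS15. The main fit did not use the numbers to pair arrays. Deviations that same-numbered R11, K11 and WT arrays share therefore count as spread, and p-values and intervals among these strains can be too cautious. The shares of all genes with an unadjusted limma p under 0.05 were 0.351% (R11 against WT), 0.425% (K11 against WT) and 0.222% (R11 against K11). All are below what this threshold passes when no gene differs. With the replicate block, which sets WT replicate 3 aside, 0 members were called. Of the other lists, limma then called 1 further meiosis gene (LDS2), 1 repressor (UME1) and 1 glucose-repressed gene (HXK1) in ΔS15 against WT, and 1 (LDS2), 2 (UME1 and TPK2) and 3 (HXK1, CIT1 and CIT2) in R11ΔS15. Without WT replicate 3, 1 repressor (TPK2) and 3 glucose-repressed genes (HXK1, CIT1 and CIT2) were called in R11ΔS15, and 0 otherwise. In both of these fits WT replicate 3 no longer enters the comparison with WT. No WT array then shares the spike-in level of ΔS15 or R11ΔS15, and strain and spike-in set cannot be told apart. The share of all genes called in these fits is not given here, so the counts cannot be read as particular to the lists.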
